A study of Mus musculus with 20 samples.

Results

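Endothelial cells of the heart were compared with endothelial cells of the kidney in mice aged 3 months. The libraries were chosen by the organ and age in their labels, which gave 3 heart and 3 kidney libraries, 6 of the 18 libraries of a series that also holds brain endothelium and cells from mice aged 24 months. They came from 7 of its 20 sequencing runs, because the third heart library was sequenced in 2 runs and these were summed. Both groups were wild type C57BL/6 mice, with no allele, transgene or agent named for either, so the labelled biological difference between them is the organ. The sequencing lanes in the labels also differed in part between the groups. Per the labels, collagenase released the cells, magnetic beads against CD31 (product of Pecam1, a surface protein of endothelium) enriched them, and flow sorting kept those with CD31 and with neither GP38 (Pdpn) nor CD45 (Ptprc). The sort did not select one kind of vessel, so each library is a mixture of arterial, capillary and venous cells of its organ. Whether each library stands for its own animal is not stated in the labels, and the p-values then reflect only how much these libraries vary, which may be technical.

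Endothelium lines every blood vessel and takes on a different form in each organ. Heart capillaries have a continuous wall rich in caveolae, small pits of the cell membrane, and pass fatty acids from the blood to muscle that burns them. The kidney has several capillary beds: the glomerulus, where blood is filtered through open pores, the peritubular capillaries, whose pores (fenestrae) are closed by a thin protein diaphragm, and the vasa recta, straight vessels that run down into the salty and urea-rich medulla.

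The deposited values were raw read counts, and the libraries held 38783581 to 87598835 counts in heart and 38189089 to 42083684 in kidney. Levels are given as CPM, read counts of a gene relative to the scaled total of its library, always in the order of libraries 1, 2 and 3. Log2 fold changes are heart minus kidney, so that a negative value means a higher level in kidney, and each has a standard error (SE). Across genes, which are not independent replicates, log2 CPM of 2 libraries of one organ correlated at 0.908 to 0.927, and that of libraries of different organs at 0.796 to 0.821. The correlations share library depth and the sort.

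Markers of endothelium were abundant in both organs. Pecam1, the sorted protein, measured 1851, 1501 and 1491 CPM in heart and 1408, 1261 and 1206 CPM in kidney, which was no difference past the threshold (log2 0.32, SE 0.13, adjusted p = 0.116). Kdr, the main VEGF receptor of blood vessels, measured 3235, 2019 and 2579 CPM in heart and 1929.8, 1831 and 1926 CPM in kidney (adjusted p = 0.178). The genes of the 2 excluded proteins were near zero. Ptprc was at 5.21, 0 and 2.89 CPM in heart and 11.4, 5.09 and 3.93 CPM in kidney, and Pdpn at 0 in every heart library and at 1.21, 2.60 and 0.571 CPM in kidney. The summed level of 19 leukocyte markers was 45.3 to 57.7 CPM in heart and 33.4 to 50.3 CPM in kidney, and 0 of the 15 tested passed the threshold.

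Transcripts of other cells were present as well, and they differed between the organs. Markers of the loop of Henle, distal tubule and collecting duct summed to 12.7, 12.3 and 85.5 CPM in heart and to 13929, 15945 and 15359 CPM in kidney, and all 19 passed the threshold on the kidney side. Their most abundant member was Umod, which encodes uromodulin of the thick ascending limb, at 3.39, 7.48 and 39.1 CPM in heart and 5311, 6254 and 7149 CPM in kidney. Tubule transcripts were therefore present in every kidney library and scarce in heart, where the third library held the most. Proximal tubule markers were far lower: without Aqp1, which capillaries also express, 16 of them summed to 522 to 605 CPM in heart and 1098 to 1190.2 CPM in kidney, and 10 passed the threshold. Of 9 podocyte markers tested 1 was higher in kidney and 2 in heart (Cdkn1c and Wt1), and the list, which endothelial cells share in part through Podxl, summed to 2080.5 to 2189.6 CPM in heart and 1361 to 1583 CPM in kidney. Nphs1, which encodes nephrin of podocytes, reached at most 1.41 CPM in a kidney library. Ren1, which encodes renin and marks juxtaglomerular cells, measured 194, 95.6 and 129 CPM in kidney and 0.136, 0 and 0.583 CPM in heart.

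In the heart libraries markers of pericytes, smooth muscle and heart muscle were higher. The 15 markers of pericytes and smooth muscle summed to 2275, 3264 and 4709 CPM in heart and 513, 659 and 725 CPM in kidney, and 11 passed the threshold on the heart side, none on the other. Rgs5, a pericyte gene, led them with 823, 837 and 1260.5 CPM against 77.6, 136 and 177 CPM. Cardiomyocyte markers summed to 186, 142 and 226 CPM in heart and 20.7, 15.7 and 26.8 CPM in kidney, with 8 of 13 tested past the threshold on the heart side. All 13 had a positive log2 fold change, with a median of 4.87. Mb, the myoglobin gene, was at 31.7, 18.7 and 27.3 CPM in heart and had no count in kidney. Some members were low, and of these, chosen after their values were seen, Myh7 was at most 0.0543 CPM in a heart library. Ttn was at most 2.14 CPM, and Nppa had no count. The 12 fibroblast markers summed to 452, 393 and 395 CPM in heart and 629, 555 and 409 CPM in kidney, with a median log2 fold change of 2.80. Of these 3 were higher in heart (Dcn, Lum and Pdgfra, at log2 4.33, 4.70 and 8.12) and 2 in kidney (Pi16 and Pdpn). Pi16 is also on the list of glomerular endothelium. Pdpn, whose protein the sort excluded, was not called when any of 4 libraries was left out (adjusted p 0.055 to 0.073). Without kidney library 2 or 3 the heart side counted at most 1, and without heart library 1, heart library 2 or kidney library 2 the kidney side counted 1. Of 7 erythroid markers found, 5 globin and haem genes were higher in heart, led by Hbb-bs at 155, 93.7 and 101 CPM against 12.5, 7.82 and 12.6 CPM, and Slc4a1, which intercalated cells of the kidney also express, was higher in kidney. In bulk samples fewer cells of a type and less RNA per cell cannot be told apart, and the part of these other cells in the organ differences below was not tested.

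**Figure D1:**
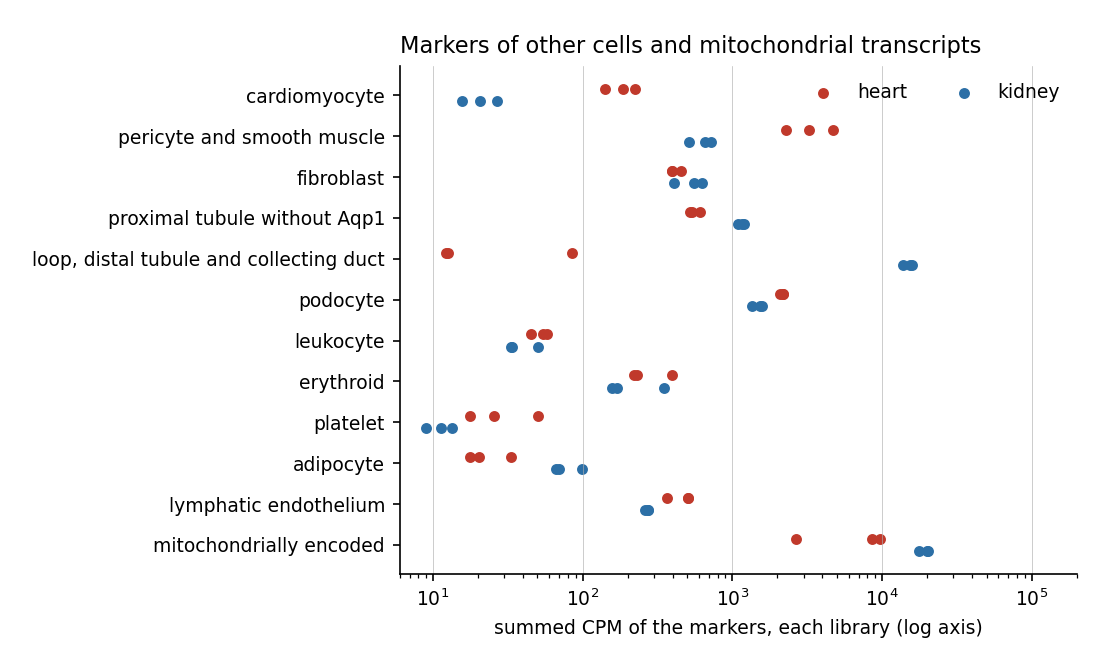
Summed CPM of the markers of other cell types in each library (log axis), heart in red and kidney in blue, with mitochondrially encoded transcripts in the lowest row. Loop, distal tubule and collecting duct markers reach 13929 to 15945 CPM in kidney and at most 85.5 CPM in heart, and pericyte and smooth muscle markers are higher in every heart library.

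Of 18369 genes tested, 3407 differed between heart and kidney endothelium at an adjusted p under 0.05 (18.5%): 1355 were higher in heart (7.38%) and 2052 higher in kidney (11.2%). The 3 libraries of one organ all lay above the 3 of the other for 6421 genes (35.0%), 2638 with heart above (14.4%) and 3783 with kidney above (20.6%), and 3312 of the 3407 called genes were among them. The median log2 fold change over all genes tested was -0.05. Counts of list members called are to be read beside the shares called over all genes. With the sequencing lane as a term in the fit, 2501 genes passed, and within lane 1 the kidney had a single library. The third heart library was run on lanes 1 and 4 and entered that fit as lane 1, as did a kidney library of 24 months run on the same lanes. Among called genes, 297 had no count in any heart library and 49 none in any kidney library. For these a fold is a lower bound against 3 counts over the group, and it covers counting error only.

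**Figure D2:**
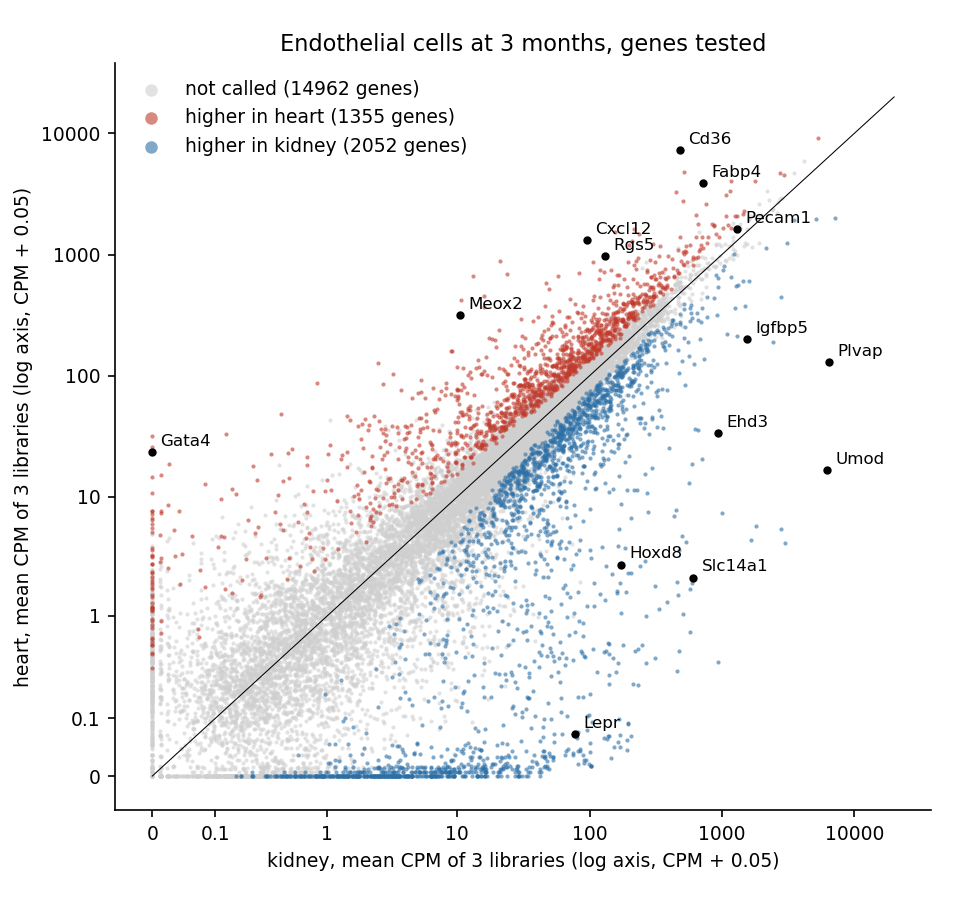
Mean CPM in kidney (horizontal) and heart (vertical) of each gene tested, both on log axes with 0.05 added, in grey where not called, red where higher in heart and blue where higher in kidney, with the line of equal levels. The 2052 genes higher in kidney spread toward 0 in heart, and named genes such as Cd36, Plvap and Umod lie far from the line.

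Genes for taking up fatty acids were higher in heart. Of 18 genes of capillary fatty acid handling, 12 were higher in heart, 3 higher in kidney and 3 not called, with a median log2 fold change of 2.00. Their summed level was 17225, 14345 and 18228 CPM in heart and 2976, 3008 and 2821 CPM in kidney. Every heart library thus lay far above every kidney library.

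Cd36, the fatty acid translocase at the cell surface, measured 7900.5, 5941 and 7924 CPM in heart and 416, 498 and 525 CPM in kidney (log2 3.92, SE 0.57, adjusted p = 0.000191). Fabp4, which carries fatty acids inside the cell, measured 3178, 3530.4 and 4870.0 CPM against 884, 665 and 624 CPM (log2 2.41, SE 0.39). Neither gene's libraries overlapped between the organs. Gpihbp1, which holds lipoprotein lipase on the capillary surface, stood at 901, 784 and 989 CPM in heart and 205, 235 and 234 CPM in kidney (log2 1.99). Its partner Lpl, the lipase itself, was at 2168, 703 and 783 CPM in heart, where the first library was far above the other two, and at 297, 309 and 299.9 CPM in kidney (log2 2.01, adjusted p = 0.00663). Markers of heart muscle and pericytes were higher in the same heart libraries, and their part in the Lpl values was not tested.

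The transcription factors Meox2 and Tcf15, which as a pair are known to drive the fatty acid uptake genes of heart endothelium, had the same pattern. Meox2 measured 253, 355 and 344 CPM in heart and 5.66, 15.2 and 10.6 CPM in kidney (log2 4.92, SE 0.59, adjusted p = 3.91e-05). Tcf15 measured 394, 650.3 and 693 CPM against 40.3, 59.0 and 40.3 CPM (log2 3.64, SE 0.25). Pparg, a nuclear receptor for lipids, was at 248, 196 and 199 CPM in heart and 64.5, 50.8 and 41.3 CPM in kidney (log2 2.04), so all 3 regulators were lower in every kidney library. Aqp7, a channel for water and glycerol, differed most within the list, at 661, 906 and 1099.7 CPM against 21.8, 30.3 and 11.4 CPM (log2 5.39, adjusted p = 0.000415). Lipe, which releases fatty acids from stored fat, and Scarb1, a receptor for HDL, were also higher in heart (log2 2.19 and 0.91).

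The 3 members higher in kidney all activate fatty acids or carry them across membranes. Slc27a1 was at 2.17, 9.06 and 12.5 CPM in heart and 89.6, 105 and 109 CPM in kidney (log2 -3.67, adjusted p = 0.000733), and Slc27a3 and Acsl1 were at log2 -2.58 and -1.37. The fatty acid transporters of the Slc27 family and Cd36 thus lay on opposite sides. Acsl5, Pnpla2 and Slc27a4 were not called (log2 -0.00, 0.37 and -0.96).

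General capillary markers leaned to the heart too, with 10 of 14 higher in heart, none in kidney and a median of 1.55. Car4, a carbonic anhydrase of capillary walls, measured 335, 294 and 306 CPM in heart and 41.8, 59.5 and 53.8 CPM in kidney (log2 2.59, SE 0.16, adjusted p = 8.88e-08). Slc28a2, a nucleoside carrier, was at 367, 429 and 461 CPM against 10.5, 11.4 and 10.3 CPM (log2 5.29). The spread within each organ was small beside these differences. Timp4, a protease inhibitor, and Kcna5, a potassium channel, were higher in heart as well (log2 4.85 and 4.55), with the first heart library above the others at 725 and 571 CPM. Aqp1, the water channel of many capillaries and of the vasa recta, was abundant in both organs at 6236, 4493 and 3512 CPM in heart and 4481, 3168 and 2908 CPM in kidney, and these ranges overlapped (log2 0.43, adjusted p = 0.544). Zbtb16, a transcription factor, overlapped too, at 74.1, 12.9 and 14.4 CPM in heart and 52.5, 7.92 and 6.30 CPM in kidney, with the first library of each organ above its others (adjusted p = 0.792).

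Genes of the proteins that shape the capillary wall lay on both sides. Of 14 genes of this group 6 were higher in heart, and these were caveola proteins and their partners. Cav1, the coat protein of caveolae, measured 4680.2, 5265 and 4384 CPM in heart and 521, 648 and 393 CPM in kidney (log2 3.20, SE 0.20, adjusted p = 8.88e-08). Cavin1, which shapes the pit, was at 1269, 1273 and 1358 CPM against 189, 256 and 178 CPM (log2 2.65), and Cavin2 and Cav2 at log2 2.45 and 1.42. The remaining 2 were Ehd1 and Ehd2, membrane-bending ATPases of which the second sits at the neck of caveolae (log2 3.04 and 2.02).

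On the kidney side were 4 genes of the same group. Plvap, which builds the diaphragm of fenestrae, measured 5984, 6309.9 and 6995 CPM in kidney and 153, 156 and 82.5 CPM in heart (log2 -5.62, SE 0.33, adjusted p = 5.86e-08). Ehd3, a relative of Ehd1 that in kidney is known from glomerular endothelium, was at 981, 895 and 925 CPM in kidney and 32.6, 29.2 and 38.6 CPM in heart (log2 -4.80, adjusted p = 1.4e-08). The 4 genes of the Ehd family were therefore split, with Ehd1 and Ehd2 on the heart side and Ehd3 and Ehd4 (log2 -2.62) on the kidney side. The remaining gene was Mal, a membrane protein also abundant in tubule epithelium, at 635, 486 and 498 CPM in kidney and at most 6.93 CPM in heart. Cavin3, Pacsin2, Emp1 and Pacsin3 were not called (log2 -0.12, -0.04, 0.38 and -1.62).

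**Figure D3:**
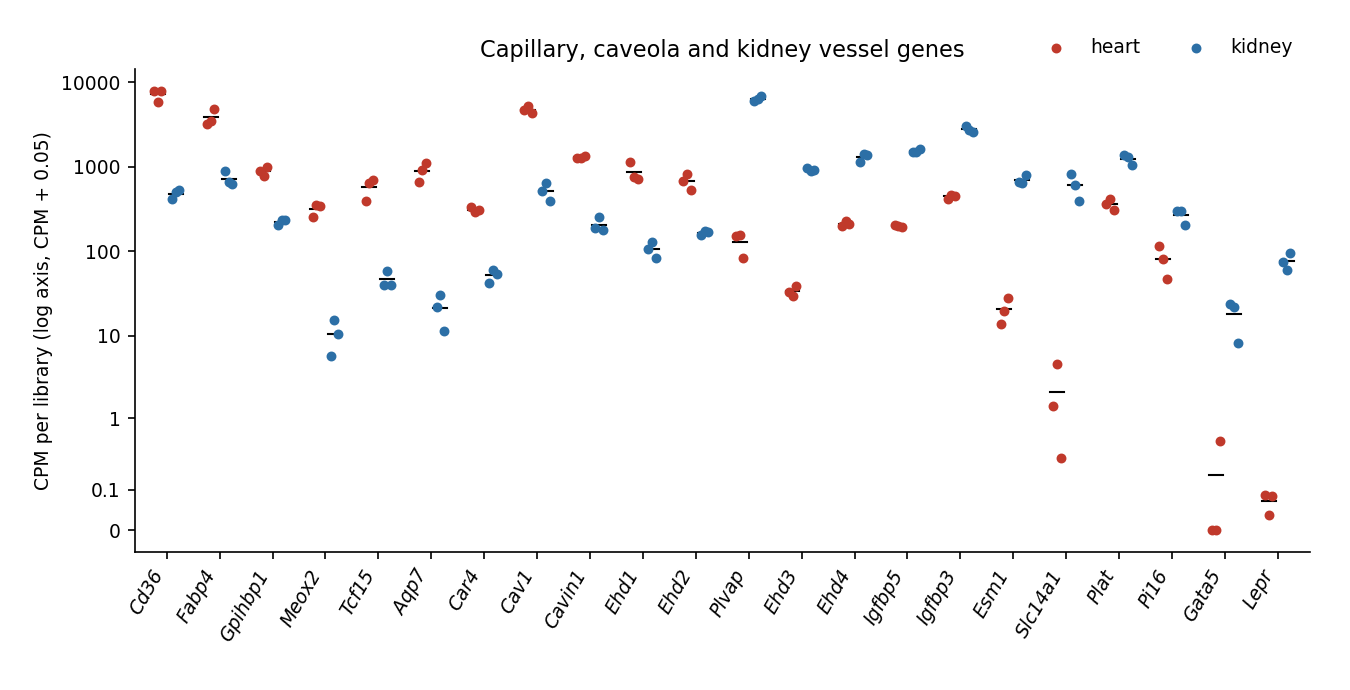
CPM of each library for genes of fatty acid uptake, caveolae, fenestrae and kidney vessels (log axis, 0.05 added), heart in red and kidney in blue, with a black line at the mean of 3 libraries. The genes from Cd36 to Ehd2 are higher in every heart library and those from Plvap to Lepr higher in every kidney library.

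Genes known from kidney vessels were higher in kidney in part of the list. Of 16 genes of the vasa recta and peritubular capillaries 12 were higher in kidney, 2 in heart (Fbln2 and Fxyd6) and 2 not called, with a median of -2.62. Slc14a1, the urea carrier of the descending vasa recta, measured 829.5, 602 and 394 CPM in kidney and 1.41, 4.63 and 0.302 CPM in heart (log2 -8.22, SE 1.34, adjusted p = 0.000497). The growth factor binding proteins Igfbp3 and Igfbp5 were the most abundant members after Plvap and Aqp1. Igfbp3 was at 3068, 2709.8 and 2591 CPM in kidney and 421, 462 and 456 CPM in heart (log2 -2.64), and Igfbp5 at 1504, 1515 and 1646 CPM against 204, 200.2 and 195 CPM (log2 -2.96). Esm1, a secreted proteoglycan, was at 664, 649 and 794 CPM in kidney and 13.8, 19.8 and 27.9 CPM in heart (log2 -5.10, adjusted p = 3.24e-07). Fxyd2, at log2 -6.68, is also a tubule gene, and its place in the list rests on both.

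Glomerular endothelial genes were less uniform. Of 15 tested, 5 were higher in kidney, 1 in heart and 9 not called, with a median of -1.74. Besides Ehd3 and Igfbp5 the kidney side held Plat, which encodes the tissue plasminogen activator, at 1388, 1298 and 1052 CPM against 363, 411 and 310.3 CPM (log2 -1.79), and Pi16 (log2 -1.74). Pi16 is also on the list of fibroblast markers. Gata5, a transcription factor of glomerular endothelium, was at 23.7, 22.1 and 8.21 CPM in kidney and 0, 0 and 0.518 CPM in heart (log2 -6.56, adjusted p = 0.0414), a call that was lost when any of the 6 libraries but heart library 3 was left out (adjusted p 0.0576 to 0.113). The exception was Tspan13, a membrane protein, at 1362, 1649 and 1561 CPM in heart and 143, 157 and 167 CPM in kidney (log2 3.29, adjusted p = 2.95e-08). Tbx3, another factor of glomerular endothelium, overlapped between organs, at 234, 126 and 133 CPM in heart and 143, 99.0 and 92.9 CPM in kidney (adjusted p = 0.16).

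Hox genes, the factors that record position along the body axis, lay on the kidney side. Of the 39 members of the 4 clusters, 30 were tested, and 19 of these were higher in kidney and none in heart. The median was -6.19, or -5.61 when the 8 members without a count in one organ are set at their bound. Their sum was 20.3, 32.5 and 33.7 CPM in heart and 607, 699.8 and 634 CPM in kidney. Of the 9 members not tested, 7 had no count in either organ: Hoxa13, Hoxb1, Hoxb13, Hoxc12, Hoxc13, Hoxd12 and Hoxd13. The other two were Hoxc11, at most 0.0504 CPM, and Hoxd1, at 3.36 CPM in the first kidney library alone.

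Hoxd8 was the most abundant, at 171, 204 and 141 CPM in kidney and 1.14, 2.00 and 5.04 CPM in heart (log2 -5.94, SE 1.03, adjusted p = 0.000787). Hoxd9 was at 62.3, 77.5 and 61.8 CPM in kidney and at most 0.291 CPM in heart (log2 -8.96). Hoxd10 was called as well (log2 -9.82), and so were Hoxd3 (at least 31-fold) and Hoxd4 (log2 -6.08), while Hoxd11 was not (log2 -6.45, adjusted p = 0.0697). In the Hoxa cluster the called genes ran from Hoxa7 to Hoxa11. Hoxa9 measured 56.3, 52.0 and 71.0 CPM in kidney and 0, 0 and 1.75 CPM in heart (log2 -6.55, adjusted p = 0.00955). Hoxa10 and Hoxa7 were at log2 -5.88 and -3.72, and Hoxa11 was at least 99-fold higher in kidney.

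Members at the other end of the Hoxa cluster did not pass. Among them, Hoxa3, Hoxa5 and Hoxa6 were at log2 -1.53, -1.41 and -2.13. Hoxa2 and Hoxa4 were the only tested members with a positive value, at 1.63 and 1.62, and their libraries overlapped between the organs.

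The Hoxb cluster began to differ earlier. Hoxb2 and Hoxb3 were not called (log2 -1.02 and -0.57), whereas all tested members from Hoxb4 to Hoxb9 were. Hoxb5 was at 30.8, 29.6 and 30.8 CPM in kidney and 3.09, 5.46 and 2.01 CPM in heart (log2 -3.12, adjusted p = 0.000696). Hoxb6 was at 55.3, 60.2 and 61.7 CPM in kidney and 0.0271, 0.626 and 0.615 CPM in heart (log2 -7.07). Hoxb9, Hoxb7 and Hoxb4 were at log2 -8.68, -6.31 and -3.67, and Hoxb8 was at least 200-fold higher. In the Hoxc cluster no library was above 5.34 CPM. Hoxc6, Hoxc10, Hoxc9 and Hoxc4 had no count in heart and were at least 253-fold, 224-fold, 167-fold and 41-fold higher in kidney, while Hoxc5 and Hoxc8 were not called. The calls of Hoxa11 and Hoxd3 were lost whichever of the 6 libraries was left out (adjusted p 0.0639 to 0.105), and those of Hoxa10, Hoxb4, Hoxc4 and Hoxd4 when any of at least 3 of them was left out. With the lane as a term 12 Hox genes were called.

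**Figure D4:**
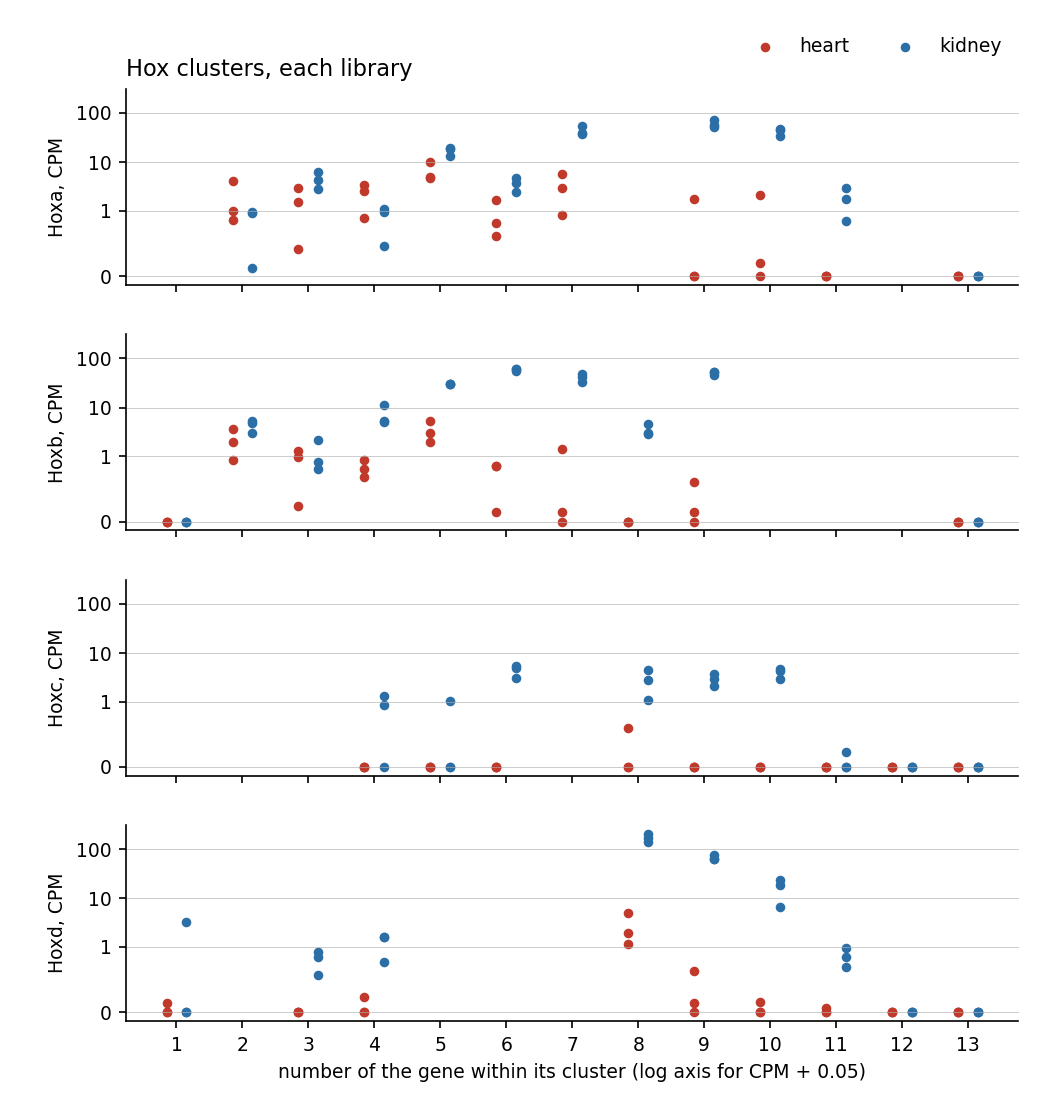
CPM of Hox genes in each library by its number within the cluster (log axis, 0.05 added), heart in red and kidney in blue, 1 panel per cluster. Called genes include Hoxa7 to Hoxa11 and Hoxb4 to Hoxb9, and the highest values are those of Hoxd8, 141 to 204 CPM in kidney.

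Collecting duct and other tubule cells also express Hox genes, and tubule markers were higher in the same 3 kidney libraries, so the share of either source in these values was not tested.

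Factors of heart and kidney development differed in part. Of 22 factors of heart development 16 were tested, 6 were higher in heart, 1 (Irx5) in kidney (2 without heart library 3) and 9 not called, with a median of 1.55. The heart count was 3 with the replicate number as a block among the 6 libraries. Gata4, a central factor of heart formation and of endocardium, the inner lining of the heart, measured 14.2, 25.7 and 29.9 CPM in heart and had no count in kidney, at least 995-fold lower there (adjusted p = 1.22e-05). Tbx20, Tbx18 and Hand2 also had no count in kidney and were at low levels in heart, at most 6.57, 1.98 and 1.40 CPM, and Tbx20 lost its call whichever kidney library was left out (adjusted p 0.0585 to 0.0604). Meox1, the relative of Meox2, did not follow it, with 189, 91.4 and 126 CPM in heart and 102, 113 and 119.6 CPM in kidney (adjusted p = 0.556).

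Of 24 factors of kidney development 14 were higher in kidney and 1 in heart, with a median of -5.68, or -4.44 with 5 members at their bound. Many of the 14 are factors of tubule epithelium, such as Tfcp2l1 of the collecting duct, at 288, 235 and 141 CPM in kidney and at most 1.25 CPM in heart, and Pax8 (log2 -11.83). Tubule markers moved with them in the same libraries, and their part was not tested. Irx3 was at 115, 116 and 162 CPM in kidney and 17.3, 12.1 and 9.56 CPM in heart (log2 -3.34, SE 0.26, adjusted p = 8.78e-07). The member on the heart side was Wt1, best known from podocytes and the epicardium, at 42.3, 49.5 and 53.5 CPM in heart and 0.904, 0.0757 and 0.286 CPM in kidney (log2 6.83, SE 0.99, adjusted p = 0.000194). Another gene of the podocyte list, the growth inhibitor Cdkn1c, did the same, at 579.6, 756 and 786 CPM against 94.1, 90.3 and 66.5 CPM (log2 3.08).

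Endocardial genes were partly on the heart side. Of 14, 7 were higher in heart and 2 in kidney, with a median of 1.40. Npr3, the clearance receptor for natriuretic peptides and a gene used to mark endocardium, was at 24.7, 26.9 and 2.11 CPM in heart and 57.3, 78.6 and 131 CPM in kidney (log2 -2.32, adjusted p = 0.0437), and the other gene on that side was Plvap. The call of Npr3 was lost whichever of the 6 libraries was left out (adjusted p 0.0517 to 0.14), and without kidney library 3 the heart side counted 4. Vwf, the clotting factor carried by larger vessels and endocardium, measured 426, 232 and 251 CPM in heart and 103, 64.0 and 35.9 CPM in kidney (log2 2.16, adjusted p = 0.000198). Cdh11 and Bmp6 were also higher in heart (log2 4.73 and 1.72).

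Among transcription factors of endothelium in general, 16 of 32 tested were higher in heart and 3 in kidney, with a median of 0.58. The ETS factor Ets1 measured 1199.6, 1072 and 1003 CPM in heart and 447, 491 and 458 CPM in kidney (log2 1.23, SE 0.17, adjusted p = 0.00012). Tcf4 and Sox7 lay in the same direction (log2 1.31 and 1.41). Of the SoxF family, Sox17 lay the other way, at 564, 431 and 352 CPM in heart and 847, 771 and 687 CPM in kidney (log2 -0.78, adjusted p = 0.00727). The other two on the kidney side were Lmo2 (log2 -1.55) and Lef1. Among 24 markers shared by all endothelium, 13 were higher in heart, such as Cdh5, the cadherin that joins endothelial cells, at 491, 465 and 502 CPM against 159, 166 and 138 CPM (log2 1.66, adjusted p = 3.75e-07). The 3 on the kidney side were Emcn, Sox17 and Tek (log2 -1.21, -0.78 and -0.54), and the median was 0.57. Without kidney library 3 the count on the heart side was 7, and Tek was not called whichever of the 6 libraries was left out (adjusted p 0.0972 to 0.117). Tubule markers were higher in the same kidney libraries, and their part in this lean was not tested.

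In the Notch, Wnt, VEGF, and BMP and TGF-beta pathways most members were not called, and the sides of the called ones differed between pathways. In the Notch pathway, which sets arterial identity and vessel branching, 7 of 22 were higher in heart and none in kidney, with a median of 0.09. The ligand Dll4 was at 477, 433 and 465 CPM in heart and 274, 329 and 359 CPM in kidney (log2 0.52, adjusted p = 0.0152), the ligand Jag2 at log2 1.04 and the target Hey1 at 217, 168 and 159.7 CPM against 43.6, 32.3 and 42.0 CPM (log2 2.21). Notch3, a receptor of mural cells, was among the 7 (log2 2.07) and is also on the list of pericyte markers. The receptors Notch1 and Notch4 and the ligand Jag1 were not called. The call of Dll4 was lost without kidney library 1 (adjusted p = 0.078).

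Wnt genes had the opposite lean: 10 of 38 were higher in kidney and 2 in heart, with a median of -0.59. On the kidney side stood the secreted inhibitors Sfrp1, at 152, 205 and 209.6 CPM against 0.109, 3.10 and 1.57 CPM (log2 -6.88), and Dkk2 (log2 -6.66). The nuclear effector Lef1 was at 77.3, 71.0 and 53.9 CPM in kidney and 0.0543, 2.83 and 0.0216 CPM in heart (log2 -6.23, adjusted p = 0.000657). Lgr5, a receptor for R-spondin, was at 103, 76.2 and 65.5 CPM in kidney and at most 0.0271 CPM in heart. All 3 kidney libraries thus held inhibitors, a receptor and an effector that were close to 0 in heart, in the company of tubule transcripts whose part was not tested. The 2 on the heart side were beta-catenin (Ctnnb1, log2 0.70) and the ligand Wnt5b (log2 4.97).

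VEGF ligands lay on both sides. The ligands Vegfa and Vegfb were higher in kidney (log2 -1.22 and -1.96), with Vegfa at 192, 214 and 251 CPM against 116, 92.3 and 74.7 CPM. The ligand Pgf was higher in heart, at 82.7, 78.8 and 64.4 CPM against 8.86, 6.61 and 7.27 CPM (log2 3.31, SE 0.27, adjusted p = 1.02e-06), and so was Vegfc (log2 1.09). The co-receptors Nrp1 and Nrp2 were higher in heart (log2 0.73 and 2.07), Nrp1 not without heart library 1 (adjusted p = 0.0525), and the receptors Kdr and Flt1 were not called. Of 28 genes in all, 8 were higher in heart and 4 in kidney, with a median of -0.33. Without heart library 1 these counts were 5 and 2, the kidney side was also 2 without kidney library 1 or 2, and the call of Vegfc was lost when any of 4 libraries was left out (adjusted p 0.101 to 0.131).

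Genes of sprouting vessels were mostly higher in heart, 11 of 18 against 1 in kidney, with a median of 1.32. Apln, a peptide of vessel tips, was at 233, 173 and 102 CPM in heart and 56.9, 76.4 and 67.3 CPM in kidney (log2 1.34), and its receptor Aplnr at 1141, 926 and 758 CPM against 270.3, 215 and 216 CPM (log2 2.01, adjusted p = 0.00131). Both partners were lower in every kidney library. The 1 gene on the kidney side was Esm1, described above and often used as a marker of tip cells. In the BMP and TGF-beta pathway 9 of 37 were higher in heart and 8 in kidney, with a median of 0.16. The receptor Tgfbr2 was higher in kidney, at 597, 551 and 508 CPM against 196, 166 and 213 CPM (log2 -1.53), whereas Ltbp4, which stores the ligand in the matrix, was higher in heart (log2 1.55).

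Cell contacts also differed. Of 31 junction genes tested 9 were higher in heart and 13 in kidney, with a median of -1.16. Those on the heart side are known from endothelium: besides Cdh5 they included Jam2, an adhesion molecule of endothelial contacts, at 1240.5, 1085 and 1185 CPM against 344, 373 and 302 CPM (log2 1.78, adjusted p = 6.11e-07), and Cdh13, the cadherin that binds adiponectin, at 596, 534 and 435 CPM against 39.6, 73.4 and 34.6 CPM (log2 3.41). Cldn5, the claudin of endothelium, was at log2 1.01. The kidney side held claudins known from tubule epithelium, such as Cldn10, chosen after its values were seen, at 134, 131 and 130.2 CPM against at most 3.91 CPM (adjusted p = 0.051 without heart library 1), together with Tjp3, which had no count in heart. Cldn15 was at 311, 266 and 261 CPM in kidney and 20.6, 33.1 and 44.8 CPM in heart (log2 -3.09). F11r, Ctnna1, Tjp1 and Jam3, shared by many cell types, were not called.

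In the basement membrane, 12 of 34 genes were higher in heart and 8 in kidney, with a median of -0.07, and the collagen IV chains fell on both sides. Col4a1, a chain of the common network, was at 5976, 3321 and 2889 CPM in heart and 1527, 1092 and 923 CPM in kidney (log2 1.78, SE 0.31, adjusted p = 0.000809), and its partner Col4a2 at log2 1.74. Col4a3 and Col4a4, chains of the network of glomerular and tubular membranes, were at log2 -4.82 and -11.25, and these 2 were singled out after their values were seen. Npnt, an integrin ligand, was at 505, 522 and 327 CPM in kidney and 5.64, 6.68 and 10.8 CPM in heart (log2 -5.86). Sparc, a matrix protein of endothelium, and Lama4, a laminin chain of vessels, were higher in heart (log2 1.20 and 2.32). The first heart library was the highest of all for Col4a1, Col4a2, Sparc and Lama4.

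Genes for vessel tone were mixed, with 11 of 34 higher in heart, 8 in kidney and a median of 0.14. Nos3, which makes nitric oxide, was at 528, 443 and 435 CPM in heart and 212, 228 and 197 CPM in kidney (log2 1.14, SE 0.15, adjusted p = 7.3e-05). The nitric oxide receptor subunit Gucy1a1 was at 176, 169 and 243 CPM against 17.3, 16.1 and 24.8 CPM (log2 3.33). It is also a gene of pericytes, whose markers were higher in the same libraries. On the kidney side were the endothelin receptor Ednrb, at 743, 468 and 586 CPM against 324, 304 and 267 CPM (log2 -1.01, adjusted p = 0.0419), and the prostaglandin enzyme Ptgs1 (log2 -0.76). The kidney count of 8 fell to between 2 and 4 whichever of the 6 libraries was left out, and Ednrb was not called when any of 5 of them was left out (adjusted p 0.0806 to 0.151). The call of Ptgs1 was lost whichever library was left out (adjusted p 0.0649 to 0.135). In haemostasis, 6 of 22 genes were higher in kidney and 2 in heart (Vwf and A2m), against 11.2% and 7.38% of all genes tested. F3, which encodes tissue factor, was at 61.7, 57.8 and 53.1 CPM in kidney and 0, 0 and 0.928 CPM in heart (log2 -7.33), and the thrombin receptor F2r at log2 -1.19. A2m, at 16.5, 5.43 and 0 CPM in heart and at most 0.0232 CPM in kidney, lost its call when any of 4 libraries was left out (adjusted p 0.0516 to 0.0745).

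Mitochondrial genes were higher in kidney. Of 29 nuclear genes of oxidative phosphorylation 26 were higher in kidney and none in heart, with a median of -0.89. The kidney count was 17 without the libraries numbered 1 and 16 with the replicate number as a block among the 6 libraries. The called members ranged from Cox7b at log2 -1.83 to Cox6a1 at -0.56, the latter not called without heart library 1, kidney library 1 or kidney library 2 (adjusted p 0.0582 to 0.0997). Atp5b, a subunit of ATP synthase, measured 1071, 1173 and 1147 CPM in heart and 2173, 2279.7 and 2021 CPM in kidney (log2 -0.93, SE 0.11, adjusted p = 4.14e-05). Atp5a1 was at 578, 623 and 606 CPM against 1389.6, 1519.5 and 1440.1 CPM (log2 -1.27). Sdha, the catalytic subunit of succinate dehydrogenase, was at 297, 413 and 378 CPM in heart and 686, 703 and 731 CPM in kidney (log2 -0.96). Sdhc, Ndufa2 and Cycs, at log2 -0.38, -0.31 and -0.82, were not called. The sum of the list was 3870.3, 4516 and 4524 CPM in heart and 8420.4, 8734 and 7956 CPM in kidney.

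Fatty acid oxidation leaned the same way, although the uptake genes were higher in heart. Of 24 genes tested 15 were higher in kidney and none in heart, with a median of -0.92. Etfa, which passes electrons from fatty acids to the respiratory chain, was at 36.4, 50.5 and 59.1 CPM in heart and 163, 162 and 163 CPM in kidney (log2 -1.74, adjusted p = 2.91e-05). Cpt1a, the gate of fatty acids into mitochondria, differed less, at 219, 138 and 139 CPM against 252, 292 and 253 CPM (log2 -0.68, adjusted p = 0.0461), and was not called when any of the 6 libraries but heart library 1 was left out (adjusted p 0.0799 to 0.168). Ppargc1a, a coactivator of mitochondrial genes, stood far apart from the enzymes, at 93.3, 68.3 and 105 CPM in kidney and 0.217, 0.0250 and 1.74 CPM in heart (log2 -6.95, SE 1.63, adjusted p = 0.00712). Transcripts of the mitochondrial genome itself were also higher in kidney for 5 of 7 tested, and 6 of the 13 on the list were not tested. The sum of all 13 was 2647, 8619.8 and 9695 CPM in heart, with the first library far below the others, and 17721, 20420.0 and 19869 CPM in kidney. On the kidney side 3 were called without heart library 1, 3 without kidney library 1, 1 without kidney library 2 and 2 without kidney library 3. Tubule cells are rich in mitochondria, tubule markers were higher in the same libraries, and their part in these differences was not tested.

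Because the respiratory chain genes moved together, their promoters were searched for binding motifs of 2 regulators of mitochondrial genes. RefSeq (GRCm38.p6) gave the 250 bases upstream of the start for 20 of the 29 genes. The NRF1 motif, 10 letters long with any base allowed at the sixth and searched on both strands, was found in 3 of them, against 895 of 12341 promoters of genes tested (7.25%). The motif of the estrogen-related receptors, TCAAGGTCA on either strand, was found in 0 of 20, against 31 of 12341 (0.251%). For fatty acid oxidation the NRF1 letters were in 3 of 22 (13.6%) and those of the estrogen-related receptors in 0. Promoters of all genes higher in kidney held the NRF1 motif in 5.95% and those of all genes higher in heart in 5.52%. The 3 respiratory chain promoters with a match are shown 5′ to 3′ on the strand of the gene, all the minus strand, with the matches in capitals. They lie at chr13:74350241-74350490, chr9:50603850-50604099 and chr5:115348959-115349208.
Sdha: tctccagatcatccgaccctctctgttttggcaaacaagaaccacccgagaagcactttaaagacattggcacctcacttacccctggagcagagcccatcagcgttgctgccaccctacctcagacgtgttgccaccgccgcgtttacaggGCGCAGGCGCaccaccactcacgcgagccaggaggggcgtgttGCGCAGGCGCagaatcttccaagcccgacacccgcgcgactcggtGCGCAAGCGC
Sdhd: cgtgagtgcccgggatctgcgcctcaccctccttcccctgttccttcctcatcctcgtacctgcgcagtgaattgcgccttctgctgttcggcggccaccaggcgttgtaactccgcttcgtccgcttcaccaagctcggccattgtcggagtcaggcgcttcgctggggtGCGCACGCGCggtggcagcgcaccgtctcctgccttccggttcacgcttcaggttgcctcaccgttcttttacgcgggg
Cox6a1: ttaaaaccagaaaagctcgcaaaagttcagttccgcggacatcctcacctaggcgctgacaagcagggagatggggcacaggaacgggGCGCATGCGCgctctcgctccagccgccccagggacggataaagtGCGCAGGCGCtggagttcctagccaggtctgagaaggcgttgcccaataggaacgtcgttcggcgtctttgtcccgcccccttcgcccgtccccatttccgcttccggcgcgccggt
Sdha had 3 matches, Cox6a1 2 and Sdhd 1, and the log2 fold changes of these genes were -0.96, -0.56 and -0.92. A match is a run of letters and not a measured site.

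Sugar metabolism was less uniform. Of 29 genes of glycolysis and the hypoxia response 12 were higher in kidney and 5 in heart, with a median of -0.41. The glycolytic enzyme Aldoa was at 1173, 1223 and 1130.5 CPM in kidney and 595, 696 and 673 CPM in heart (log2 -0.84), and Hk1 and Pkm at log2 -0.85 and -0.59. The hypoxia factors went apart, with Hif1a higher in kidney (log2 -0.90) and Epas1 higher in heart (log2 0.57). Egln1, the enzyme that marks both for degradation, was at 168, 259 and 190.3 CPM in heart and 49.4, 68.2 and 32.2 CPM in kidney (log2 2.04). Slc2a1, the glucose carrier, was higher in kidney, at 146, 141 and 121 CPM against 34.1, 55.6 and 47.4 CPM (log2 -1.57, adjusted p = 0.000373). Among 34 glucose and amino acid carriers 9 were higher in kidney and 3 in heart, among them Slc16a1 and Slc7a5, with a median of -0.69. Over all genes tested 11.2% were higher in kidney and 7.38% in heart. The heart side of the carriers counted 1 without kidney library 1 or 3. Slc16a1 was not called when any of 4 libraries was left out (adjusted p 0.0649 to 0.111).

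Chemokines and adhesion molecules were higher in heart for 8 of 29 tested, higher in kidney for 2 (Cx3cl1 and Cxcl11), with a median of 0.65. Cxcl12, which guides leukocytes and vessel growth, was at 1006, 1348 and 1572 CPM in heart and 107, 121 and 58.7 CPM in kidney (log2 3.77, SE 0.29, adjusted p = 7.73e-07). Its scavenger receptor Ackr3 was at 491, 331 and 305 CPM against 43.1, 46.9 and 48.9 CPM (log2 3.02). Cxcl9, a chemokine induced by interferon gamma, was at 92.5, 60.7 and 77.3 CPM in heart and 1.11, 5.65 and 4.41 CPM in kidney (log2 4.37). These 3 did not overlap between the organs. The heart count was 5 without heart library 2 or kidney library 1.

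Interferon-stimulated genes did not lean one way: of 37, 4 were higher in heart and 7 in kidney, with a median of -0.00. The shares over all genes tested were 7.38% and 11.2%. Rsad2, an antiviral enzyme, was at 1030.3, 917 and 817 CPM in kidney and 385, 291 and 270.4 CPM in heart (log2 -1.55, adjusted p = 2.17e-05), and Ifi44 at log2 -2.33. Oas2 lay the other way, at 132, 125 and 95.1 CPM in heart and 6.26, 10.5 and 13.1 CPM in kidney (log2 3.56), as did Iigp1 (log2 1.15), whose call was lost without heart library 2 or kidney library 1 (adjusted p 0.0519 to 0.0618). Without kidney library 1 the heart side counted 2. Of 16 genes of MHC class I, 1 was called (6.25%, H2-T23), and of 8 genes of class II, 2 were (25%, H2-Ab1 and Ciita), all 3 higher in kidney. Over all genes tested 18.5% were called in either direction. H2-T23 was not called without heart library 1 or 2 (adjusted p 0.0699 to 0.073). Immediate early genes, which respond within minutes to handling and digestion as well as to signals in the tissue, were higher in heart for 10 of 26 and in kidney for none, with a median of 0.52. Egr1 was at 11362, 8964 and 6935 CPM in heart and 4183, 6299.5 and 5390.0 CPM in kidney (log2 0.78, adjusted p = 0.0185), while Fos and Jun were not called. The count of 10 depended on single libraries: it was 2 without heart library 1, 2 without kidney library 1, and 5 or 6 without heart library 2, kidney library 2 or kidney library 3. The call of Egr1 was lost without heart library 1, kidney library 1 or kidney library 3 (adjusted p 0.0522 to 0.0973).

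**Figure D5:**
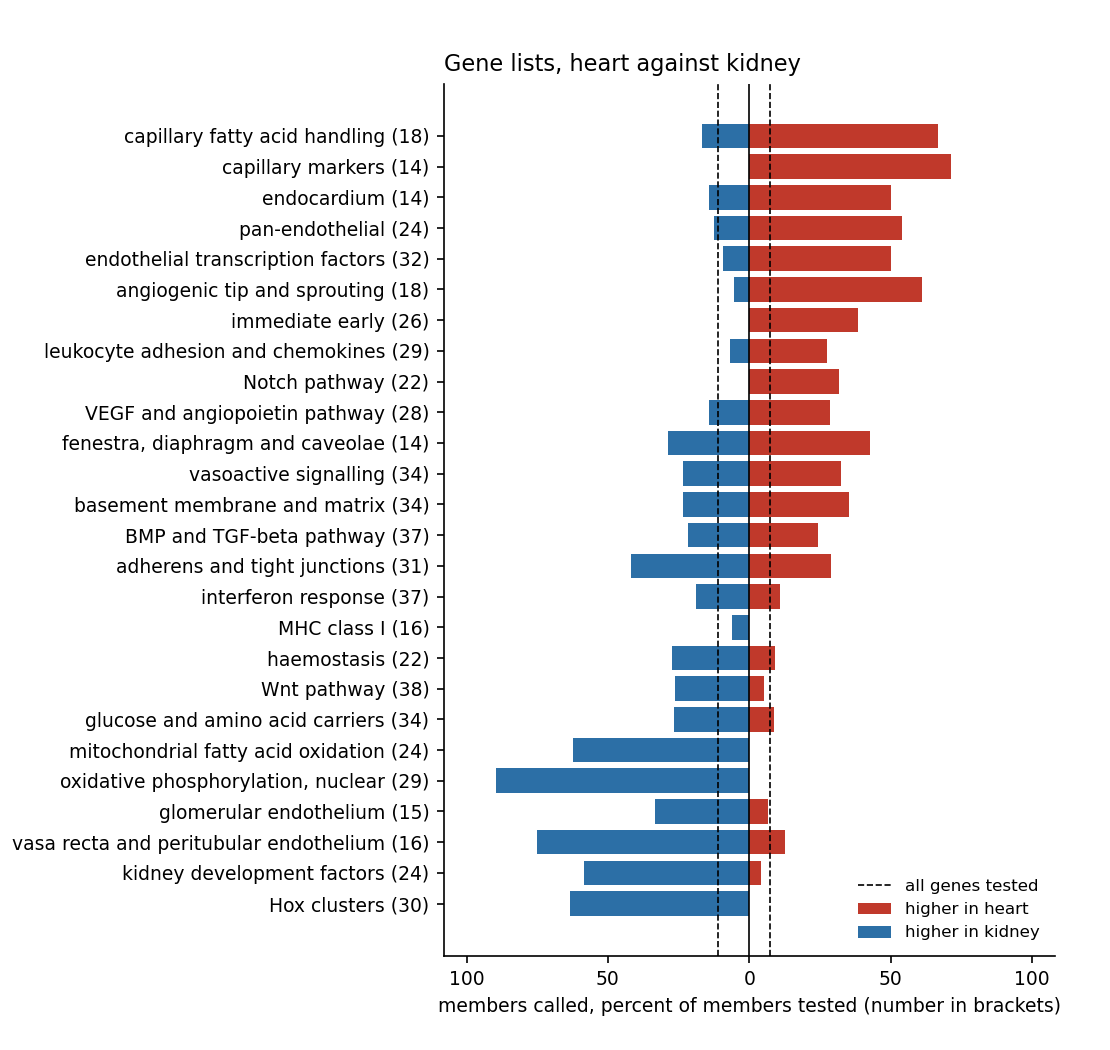
Share of the tested members of gene lists (those of other cells are not drawn) called higher in heart (red, to the right) and higher in kidney (blue, to the left), with the number tested in brackets and dashed lines at the shares over all genes tested, 7.38% and 11.2%. Oxidative phosphorylation (26 of 29) and vasa recta genes (12 of 16) reach furthest to the left of the lists drawn and capillary markers (10 of 14) furthest to the right.

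The 10 genes with the largest fold change in each direction, among called genes whose libraries did not overlap and with at least 5 CPM in the higher organ, all had no count in the other organ. In heart these were, besides Gata4, the anchoring protein Akap5, at 11.7, 54.0 and 30.5 CPM and at least 1372-fold lower in kidney, and Mb, the myoglobin of heart muscle, at least 1108-fold lower. The transcription factor Ebf2 was at 11.8, 7.56 and 24.2 CPM (at least 622-fold) and the chemokine receptor Ccr7 at 2.85, 12.6 and 3.91 CPM (at least 276-fold). The call of Ebf2 was lost when any of 5 of the 6 libraries was left out (adjusted p 0.0505 to 0.0889) and that of Nyx likewise (0.0502 to 0.0796). The remaining 5 of this kind in heart were Ahsg, Alkal2, Klra9, Rhox5 and Nyx, at least 283-fold to 463-fold higher. Mb, at 18.7 to 31.7 CPM, is a muscle gene and 1 of the 8 cardiomyocyte markers called higher in heart among 13 tested. In kidney the 10 largest included Prom2, Tjp3, Atp6v0a4, Galnt3, Tmem25, Aqp6, Btc, Rassf6 and Epb41l4b, at least 1349-fold to 2369-fold higher, with the call of Btc lost without heart library 3 (adjusted p = 0.0528). Several of these are known from epithelium of the nephron, such as the proton pump subunit Atp6v0a4 and the water channel Aqp6 of intercalated cells.

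Among genes with at least 50 CPM in one organ and 5 CPM in the other, those on lists of other cells left out, the 10 largest differences toward heart began with Ablim3, an actin-binding protein, at 804, 573 and 616 CPM against 17.3, 16.1 and 6.28 CPM (log2 5.65, SE 0.59, adjusted p = 1.13e-05). C1qtnf9, a secreted relative of adiponectin, was at 706, 677 and 673 CPM against 34.0, 24.6 and 13.3 CPM (log2 4.84), and Rbp7, a retinol-binding protein of endothelium, at 139, 137 and 200.1 CPM against 11.3, 11.6 and 3.84 CPM (log2 4.15). Pdlim1 was at log2 4.14. The others were Aqp7, Slc28a2, Meox2, Timp4, Kcna5 and Cd36, all described above.

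Toward kidney the same rule gave Atp1b1, a subunit of the sodium pump, at 988, 1019.8 and 973 CPM against 6.51, 2.90 and 12.7 CPM (log2 -7.06), and Car2, a carbonic anhydrase (log2 -5.97), both abundant in tubules. Cd24a was also named (log2 -5.45), as was the matrix protein Thbs2 (log2 -5.22). Exoc3l2, a gene of vesicle traffic in endothelium, was at 551, 639 and 588 CPM in kidney and 18.3, 18.5 and 19.7 CPM in heart (log2 -4.97, SE 0.24, adjusted p = 1.07e-08), with little spread in either organ. Chst2, a sulfotransferase, and Arhgap24, a regulator of Rac, were at log2 -4.96 and -4.92, and Npnt, Plvap and Esm1 completed the 10. The part of tubule transcripts in any of these 10 differences was not tested.

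Separate libraries of mice aged 24 months gave the organ difference at a later age. For 3 of the 4 kidney runs of that age the label fields name different libraries, so these were assigned by organ and age only, and the runs whose columns name one library were summed, which left 3 libraries. At that age 2847 genes were called (15.5%). Of the 3407 genes called at 3 months, 3317 had the same sign at 24 months (97.4%, against 73.2% of all genes tested), 2103 were called in the same direction and 3 in the opposite one (Gfra2, A4galt and St6galnac3), whose calls at 3 months were each lost when any of at least 2 libraries was left out. All 19 called Hox genes kept their sign and 12 were called again, a share near that of all called genes (2103 of 3407). All 10 called genes of fenestrae and caveolae were called again. Of the 26 genes of oxidative phosphorylation 26 kept their sign and 14 were called again, a lower share than that of all called genes. Of the 5 called transcripts of the mitochondrial genome 4 kept their sign and 0 were called again.

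A test of the difference between the ages called 1 gene (0.00544%), Lepr, the receptor for leptin, at chr4:101717404-101815352 (GRCm38). At 3 months Lepr was at 0.0814, 0.0250 and 0.0755 CPM in heart and 75.6, 59.5 and 96.1 CPM in kidney (log2 -10.18, adjusted p = 9.79e-09). At 24 months it was at 3.52 ± 0.95 CPM in heart and 100.2 ± 26.9 CPM in kidney (SD, n = 3), a log2 fold change of -4.83. The organ difference was thus smaller at 24 months by 5.35 on the log2 scale (SE 0.53, adjusted p = 0.000927), and kidney was above heart at both ages. In heart 3 counts over the group are 0.0177 CPM, so the size of the 3-month fold change rests on few counts. An unadjusted edgeR p under 0.05 for the difference between ages was found for 1324 of 18369 genes. That count includes genes that would pass this threshold with no difference between ages. DESeq2 called 220.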

How the data were processed

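Gene counts were measured by RNA sequencing of sorted endothelial cells (18 libraries from 20 runs). The deposited values are raw read counts per Ensembl gene. Reads were aligned with TopHat2 and counted with HTSeq on GRCm38 (mm10), per the submitters' processing notes; the versions, the annotation and any use of strand are not given in the sources used here, so antisense and overlapping genes could not be told apart. cDNA was made with the SMART-Seq v4 kit, per the labels' protocols. Digestion and sorting before lysis can themselves change handling-responsive genes.

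The 2 runs of the third heart library differed by about the sampling noise of counts (chi-square per degree of freedom 1.085, against 61.2 to 203 for 22 pairs of different libraries). They were summed and counted as 1 sample. One of the 2 runs carries another age in its characteristics than in its title, and the title was followed. The counting tool's summary lines, which name no gene, were 31.4% to 33.5% of the kidney columns and were left out. Libraries 1, 2 and 3 are those numbered 1, 3 and 4 in the labels.

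Counts were tested in R 4.3.3 with edgeR 4.0.16, by its quasi-likelihood F test with TMM scaling, after a filter on low counts (filterByExpr, minimum count 10), which left 18369 genes. All 18 libraries in 6 groups entered the fit, so that the spread was shared (12 residual degrees of freedom). Each adjusted p in the text is this test's, with Benjamini-Hochberg adjustment over all genes tested and a threshold of 0.05. The SE is the absolute log2 fold change over the square root of F. The difference between ages was an interaction term. On simulated counts the test recovered 27% of 2-fold and 61% of 4-fold changes with 2 of 90 calls false, and DESeq2 1.42.0 recovered 40% and 77% with 73 of 190 false. Far fewer genes differed between the organs in the simulation than were called in the data, so these shares need not carry over. Symbols and positions came from GENCODE M21 (GRCm38), which named 45143 of 46078 genes.

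Gene lists, and the choice to compare these organs, were made with earlier results of these data known. The text names, in each direction, the 10 called genes without overlap and with the largest fold change at 5 CPM or more in the higher organ, the same at 50 CPM in the higher and 5 CPM in the lower organ with other-cell lists left out, up to 10 called (highest CPM first) and 4 uncalled members of each list, the Hox genes and a fixed set. Some genes that this rule names are not reported here. The first 2 kinds exclude predicted genes, Rik clones, immunoglobulin segments and genes of ribosomal proteins. Nphs1, Myh7, Ttn, Nppa, Notch1, Cldn10, Col4a3, Col4a4, Cox7b and Cox6a1 are named outside this rule and were chosen after their values were seen. Alternatives were another scaling, DESeq2, no filter, fewer libraries in the fit, the lane or the replicate number as a term, 1 run of the third heart library, and each library left out in turn.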

Additional observations from a re-analysis of the deposited data

Results flagged for a closer look

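Lepr, which encodes the leptin receptor, had organ differences that differed between the ages by an interaction test in edgeR. Its log2 fold change of heart against kidney was -10.18 at 3 months and -4.83 at 24 months, a difference of 5.35 (SE 0.53, adjusted p = 0.000927). The heart level was 0.0814, 0.0250 and 0.0755 CPM at 3 months and 3.52 ± 0.95 CPM at 24 months (SD, n = 3), and kidney was above heart at both ages. These 3-month heart values rest on few counts, as 3 counts over the group are 0.0177 CPM.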

How the results depend on the processing

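The number of genes that differed at 3 months was 3407, and 2947 to 4487 with only the 6 libraries in the fit, DESeq2, RLE size factors, no filter or a single run of the third heart library. The lane as a term gave 2501, and leaving out 1 library gave 2621 to 2990 (1003 to 1165 higher in heart, 1583 to 1825 higher in kidney). Same-numbered libraries deviated together at correlations of 0.0861, 0.0419 and 0.0758, each the highest for its library, against -0.0717 to -0.000496 for the other pairs. Whether libraries of one number share an animal is not stated in the labels, and the main fit did not treat them as paired. With the replicate number as a block 3568 genes were called (2102 higher in kidney), and the difference between ages called 1. Settings chosen after seeing the data were the block within the 6 libraries, with 2180 called and 1257 higher in kidney, and leaving out all libraries numbered 1, with 2453 called. The share of calls higher in heart stayed between 37.7% and 44.1% across all settings, and the median over all genes between -0.101 and 0.

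The difference between ages called 1 gene, 5 with only the 12 heart and kidney libraries, 2 without the libraries numbered 1, 220 with DESeq2 and 1 to 8 with 1 library left out. The Lepr difference stayed between 5.08 and 5.78 and past the threshold. Of 230 named genes 175 kept their call in every setting that gave an adjusted p and none reversed: 230 of 3451 values lost the call and 13 gained it. List counts moved by over 1.5 times in 91 of 900 values. Counts of 16 of 29 genes of oxidative phosphorylation with the block in 6 libraries and 17 without the libraries numbered 1 were among them. The cause of these changes was not tested. For genes with no count in one organ the depth allowed only a lower bound on the fold.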
